A study of Homo sapiens with 8 samples.

Results

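The genes described are 10 members of the Notch pathway, taken by symbol from the deposited gene tables: the receptors NOTCH1, NOTCH2, NOTCH3 and NOTCH4, the ligands JAG1, JAG2 and DLL1, and the effectors HES1, HEY1 and HEY2. All 10 were found among the 20531 genes listed. They were chosen as members of a pathway and not by a measured value. Poly(A) RNA was sequenced from SKBR-3 and BT474m1, human breast cancer cell lines with amplified HER2 (ERBB2). Per the study, SKBR-3 lacks the estrogen and progesterone receptors and BT474m1 has both. Within each line, 1 culture was given DMSO (the solvent), 1 was given lapatinib at 300 nM (which blocks the HER2 and EGFR kinases), 1 was given JQ1 at 300 nM (which blocks BET bromodomain proteins) and 1 was given both drugs at those doses, each for 48 h. The design asks how expression adapts to HER2 inhibition, and what BET inhibition does to that response. Each of the 8 groups thus held 1 library, so that no difference could be set against a spread between cultures and no p-value is given.

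Notch receptors are single-pass membrane proteins that are cut when a ligand on a neighbouring cell pulls on them. The last cut, by gamma-secretase, frees the intracellular domain, which enters the nucleus, joins the DNA-binding protein RBPJ and a Mastermind coactivator, and turns on target genes. HES1, HEY1 and HEY2 are such targets and encode basic helix-loop-helix repressors. In the breast, Notch signalling is known for its part in luminal cell fate.

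Because RBPJ recognises the heptamer GTGGGAA, the members' promoters were searched for it on both strands, in windows from 250 bases before to 50 bases after each start site (RefSeq, GRCh38.p14). A window was found for 8 of the 10 members. The heptamer was present in the windows of HES1 and HEY2, both effectors, and in none of the other 6, which are the receptors, JAG1 and JAG2. It is present in 6.24% of the 34943 promoter windows of that length. The matches are shown because HES1 and HEY2 are known targets of the RBPJ complex. HEY1, the other such target among the members, had no window and was not searched, nor was DLL1. They are matches of letters only, with the heptamer in capitals. Positions count from 1 at the first transcribed base, with -1 just before it.
HES1, chr3:194136023-194136109, plus strand, heptamer at -85 to -79: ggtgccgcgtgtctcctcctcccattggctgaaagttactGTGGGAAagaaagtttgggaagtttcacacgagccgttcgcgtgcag
HEY2, chr6:125749617-125749646, plus strand, heptamer at -4 to 3: agagttgcggcGTGGGAAagagccgctagg
HEY2, chr6:125749382-125749465, plus strand, heptamer read on the opposite strand at -213 to -207: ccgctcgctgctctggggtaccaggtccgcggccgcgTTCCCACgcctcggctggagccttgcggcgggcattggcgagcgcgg

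The Forkhead heptamers GTAAACA and GTCAACA, the alternatives of a motif that the study discusses, were present in none of the 8 windows on either strand. They are present in 3.42% and 2.32% of all windows respectively.

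The deposited values are normalised read counts, in which the authors set each library's upper quartile, over genes above 0, to 1000. A read was worth 0.471 to 0.766 units, the depth ran from 21420113 to 34112379 reads on genes, and a floor of 3 reads came to 1.41 to 2.30 units. Of the luminal epithelial markers, 6 of 6 were above that floor in every library, with summed values from 186304 to 661601. CDH1 was nevertheless at 2.58 to 15.1 in SKBR-3, against 19414 to 24373 in BT474m1. Basal epithelial markers summed to 2.92 to 38.7, fibroblast markers to 24.1 to 1262, endothelial markers to 7 to 189.1 and leukocyte markers to 12.7 to 409.6. The sums rest on few genes. COL1A1 carried the fibroblast sum, at 24.1 to 1253.2, and CD68 the leukocyte sum, at 178.2 to 407.4 in SKBR-3 and 11.8 to 27.7 in BT474m1. Of the endothelial markers, VWF reached 152.8 and CDH5 126.0, while PECAM1 was at most 0.583. The leukocyte markers PTPRC and CD3E were at most 3.38 and 2.86. In such bulk samples, fewer cells of a type and less RNA per cell cannot be told apart.

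Per kilobase of the canonical transcript, HES1 was the highest of the 10 members in all 8 libraries. Its level with DMSO was 841.7 per kilobase in SKBR-3 and 1187 in BT474m1. NOTCH2 and NOTCH3 came next. In SKBR-3 with DMSO, NOTCH2 stood at 658.4 per kilobase, NOTCH3 at 224.6 and NOTCH1 at 72.5. In BT474m1 with DMSO, NOTCH3 led the receptors at 312.5 per kilobase, ahead of NOTCH2 at 265.0 and NOTCH1 at 52.2. NOTCH3 and NOTCH2 kept that order in the other BT474m1 libraries, but with both drugs their levels of 283.2 and 278.0 per kilobase had overlapping Poisson intervals. NOTCH4 was at the bottom of the BT474m1 order, at 0.716 to 1.70 per kilobase, although its interval overlapped that of HEY1 with lapatinib and those of HEY1 and HEY2 with both drugs.

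The ligands were below NOTCH2 and NOTCH3, and their order differed between the lines. In SKBR-3 with DMSO, JAG2 stood at 32.9 per kilobase, JAG1 at 7.47 and DLL1 at 0.379. In BT474m1 with DMSO, JAG2 at 47.2 and DLL1 at 46.7 per kilobase could not be separated by their intervals, and JAG1 stood at 9.13. The intervals of JAG2 and NOTCH1 overlapped there as well, and with lapatinib JAG2 at 81.4 and DLL1 at 66.5 per kilobase were above NOTCH1 at 52.1. Of the HEY genes, HEY1 at 26.1 per kilobase was the one detected in SKBR-3 with DMSO, while BT474m1 had HEY2 at 25.9 and HEY1 at 6.44 per kilobase. JAG2 and HEY1 in SKBR-3 had intervals of 29.0 to 37.1 and 20.7 to 32.4 per kilobase, and so could not be separated either.

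**Figure D1:**
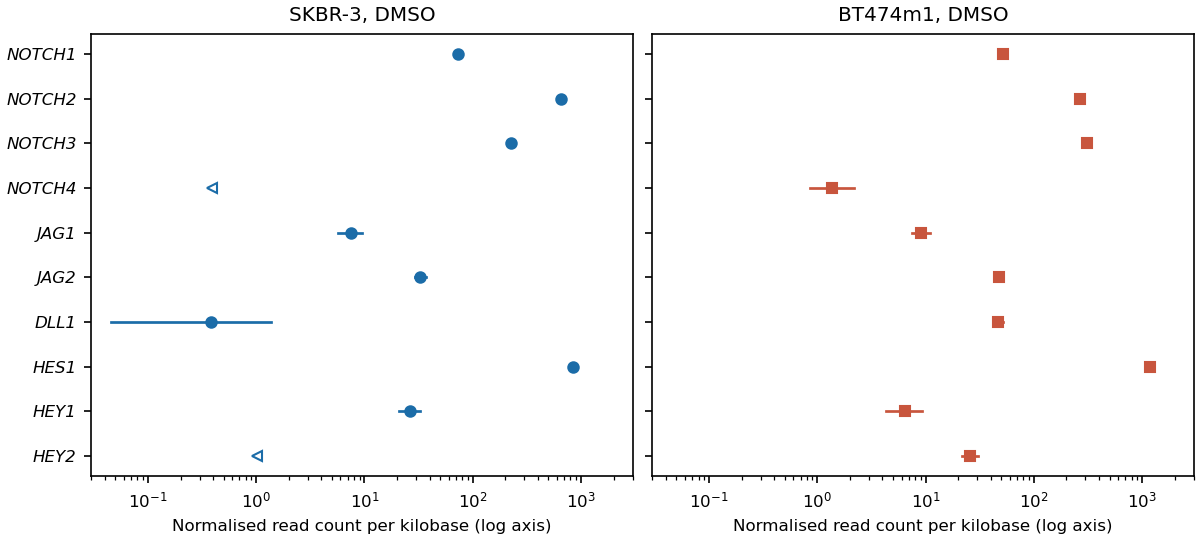
Normalised read count per kilobase of the canonical transcript (log axis) for the 10 members in the DMSO library of each line, with lines for 95% Poisson intervals from the reads; open triangles mark the upper end of the interval for genes with 0 reads. HES1 is highest in both lines, NOTCH2 leads the receptors in SKBR-3 and NOTCH3 in BT474m1, and DLL1 and HEY2 are near or at 0 in SKBR-3.

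Fold changes were taken on log2(value + 1), and a member was counted as higher or lower at a change of 2-fold or more. The bracketed ranges are 95% Clopper-Pearson intervals of the ratio of reads, on the log2 scale. Intervals and floors cover counting error only, since amplified reads that carry no molecular identifier do not count molecules. All 10 members had a value of at least 10 in at least 1 library, as did 14429 genes in all, which form the background given beside each count.

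Under lapatinib in SKBR-3, 0 members were counted as higher and 0 as lower, against 11.1% and 9.44% of all genes, and the members' median log2 fold change was 0.34 (0.05 over all genes). Under JQ1 in SKBR-3, 1 was higher (HEY2) and 1 lower (NOTCH3), against 3.75% and 11.8% of all genes, with a median of 0.06 (-0.08 over all genes). Under both drugs in SKBR-3, 3 were higher (NOTCH4, JAG1 and HEY2) and 2 lower (NOTCH3 and JAG2), against 10.8% and 20.8%, with a median of 0.52 (-0.08 over all genes). HEY2 and NOTCH4 in these counts rest on 3 reads or fewer in each library, with intervals that include no change, so JAG1 was the single member counted as higher on more than 3 reads. Over the 7 members above 3 reads in a library of the comparison, the median was 0.12 with JQ1 and 0.33 with both drugs.

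Under lapatinib in BT474m1, 2 members rose (JAG1 and HEY2) and 1 fell (HEY1), against 14.0% and 8.06% of all genes, with a median log2 fold change of 0.30 (0.07 over all genes). Under JQ1, 1 rose (JAG1) and 0 fell, against 4.81% and 11.8%, with a median of 0.03 (-0.06 over all genes). Under both drugs, 0 rose and 2 fell (HEY1 and HEY2), against 14.2% and 15.3%, with a median of -0.02 (0.00 over all genes). With lists of 10, these shares are near the background or rest on 1 to 3 genes, and the content lies in the single members. No member was changed at least 2-fold in the same direction in both lines by the same treatment. The share of all genes changed alike in both lines was not taken, so nothing is read from this.

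Both drugs were also set against each drug alone. Against lapatinib in SKBR-3, 2 members were higher (JAG1, and HEY2 on 3 reads) and 1 lower (NOTCH3), beside 3.22% and 16.2% of all genes. Against JQ1 in SKBR-3, 2 were higher (JAG1, and NOTCH4 on 3 reads) and 1 lower (JAG2), beside 9.79% and 12.3%. In BT474m1, 0 were higher and 1 lower (HEY2) than with lapatinib, beside 5.20% and 12.5%. Against JQ1 in BT474m1, 1 was higher (NOTCH4) and 2 lower (HEY1 and HEY2), beside 12.4% and 7.27%. These comparisons share libraries with those against DMSO and are not separate evidence.

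**Figure D2:**
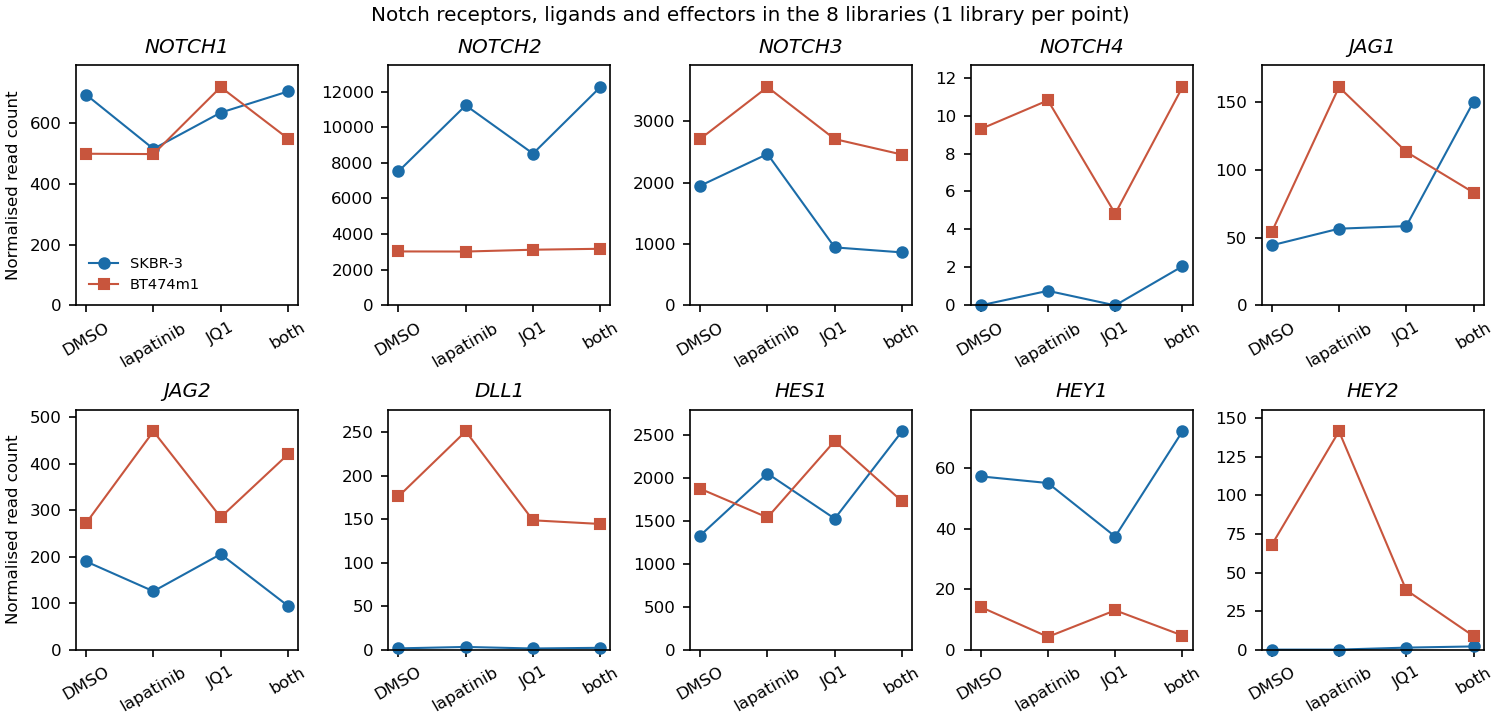
Normalised read count of each of the 10 members (linear axis from 0, its own scale in each panel) with DMSO, lapatinib, JQ1 and both drugs; each point is 1 library, circles for SKBR-3 and squares for BT474m1, joined by lines for reading only. NOTCH3 falls with JQ1 in SKBR-3 and not in BT474m1, JAG1 is highest with both drugs in SKBR-3 and with lapatinib in BT474m1, and HEY2 is lowest with both drugs in BT474m1.

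NOTCH3, a receptor known best from vascular smooth muscle, read 1950 with DMSO, 2467 under lapatinib, 945.2 under JQ1 and 863.3 under both drugs in SKBR-3. In BT474m1 it read 2713, 3558, 2711 and 2458 in the same order. Both SKBR-3 libraries that received JQ1 lay below the other 2, whereas the BT474m1 libraries given DMSO and JQ1 differed by less than counting error. The log2 fold change in SKBR-3 was -1.04 (-1.14 to -0.95) with JQ1 and -1.17 (-1.27 to -1.08) with the combination. BT474m1 stood at -0.00 (-0.05 to 0.05) with JQ1 and -0.14 (-0.20 to -0.08) with both drugs. The change with JQ1 in SKBR-3 stood at -0.96 when libraries were scaled by the median of ratios, just short of 2-fold. The SKBR-3 library with JQ1 also had the highest sum of luminal markers, 661601, and the highest share of signal in its top 20 genes, 14.0%, and their part in this result was not tested. With lapatinib, NOTCH3 differed from DMSO by 0.34 (0.27 to 0.41) in SKBR-3 and 0.39 (0.34 to 0.44) in BT474m1, both under 2-fold.

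The JQ1 responses of NOTCH3 in the lines differed by 1.04 on the log2 scale (0.94 to 1.15), and those to both drugs by 1.03 (0.92 to 1.14), BT474m1 minus SKBR-3. NOTCH3 in SKBR-3 with both drugs was at 0.350 of its value with lapatinib, a log2 fold change of -1.51 (-1.61 to -1.42). The same contrast in BT474m1 gave -0.53 (-0.59 to -0.48).

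NOTCH2, the receptor with the highest level per kilobase in SKBR-3, read 7522 with DMSO, 11225 under lapatinib, 8519 under JQ1 and 12253 under both drugs in SKBR-3. The BT474m1 values were 3027, 3021, 3123 and 3176. The SKBR-3 libraries with lapatinib were higher than those without it, by 0.58 (0.54 to 0.61) for lapatinib and 0.70 (0.67 to 0.74) for both drugs against DMSO. The 4 BT474m1 values lay between 3021 and 3176. None of these reached 2-fold. NOTCH2 shares sequence with the partial copy NOTCH2NL, and its values were whole multiples of a read in 0 of 8 libraries, so part of its signal was divided between genes. NOTCH2NL stood at 0.0851 to 0.138 of the NOTCH2 value in SKBR-3 and at 0.167 to 0.313 in BT474m1. Its log2 fold change was 0.99 with lapatinib and 1.02 with both drugs in SKBR-3, and 0.73 and 0.92 in BT474m1, and how reads were divided between the copies was not tested.

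NOTCH1 read 693.6 with DMSO, 515.3 under lapatinib, 634.7 under JQ1 and 704.4 under both drugs in SKBR-3, and 499.3, 498.2, 718.8 and 549.3 in BT474m1. It stayed under 2-fold in every comparison. Its low value in SKBR-3 was with lapatinib, at a log2 fold change of -0.43 (-0.57 to -0.29), and its high value in BT474m1 was with JQ1, at 0.52 (0.41 to 0.64). NOTCH4, a receptor known mainly from endothelium, had 0, 1, 0 and 3 reads in SKBR-3, where it was at or under the floor throughout. The corresponding BT474m1 libraries read 9.29 with DMSO, 10.8 under lapatinib, 4.83 under JQ1 and 11.5 under both drugs. Against JQ1 alone, the value with both drugs was higher by 1.10 (0.11 to 2.53), from 10 and 20 reads. RefSeq places NOTCH4 in overlap with GPSM3, which read 0.966 to 19.1, and the labels give conflicting kits, 1 of them stranded, so reads of overlapping genes may not be separable.

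JAG1, a ligand of the Serrate type, read 44.4 with DMSO, 56.7 under lapatinib, 58.6 under JQ1 and 150.6 under both drugs in SKBR-3. BT474m1 gave 54.2, 161.4, 113.5 and 83.4 in the same order. The library with both drugs was thus the highest of the 4 in SKBR-3, whereas in BT474m1 each single-drug library was higher than the one with both. In SKBR-3, JAG1 rose with both drugs by 1.74 (1.35 to 2.19), and the changes with lapatinib, 0.35 (-0.15 to 0.86), and with JQ1, 0.39 (-0.08 to 0.89), were within counting error. In BT474m1, it rose with lapatinib by 1.56 (1.25 to 1.90) and with JQ1 by 1.05 (0.74 to 1.40), and differed by 0.61 (0.26 to 0.99) with both. With a pseudocount of 10 the change with JQ1 was 0.94 and no longer reached 2-fold.

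JAG2, the other ligand of that type, read 189.7 with DMSO, 125.6 under lapatinib, 205.5 under JQ1 and 94.2 under both drugs in SKBR-3. In BT474m1 it read 272.5, 469.9, 285.0 and 420.4. The libraries with lapatinib were the lower ones in SKBR-3 and the higher ones in BT474m1. The log2 fold change with lapatinib was -0.59 (-0.88 to -0.31) in SKBR-3 and 0.78 (0.63 to 0.94) in BT474m1, both under 2-fold. With both drugs JAG2 fell in SKBR-3 to 0.497 of the DMSO value (0.401 to 0.613), at the line of 2-fold, and differed by 0.62 (0.47 to 0.79) in BT474m1. The SKBR-3 log2 fold change became -0.86 with scaling by the median of ratios and -0.94 with a pseudocount of 10. JQ1 alone left JAG2 at 0.12 (-0.12 to 0.36) in SKBR-3 and 0.06 (-0.10 to 0.23) in BT474m1.

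DLL1, a ligand of the Delta type, had 2 to 4 reads in each SKBR-3 library. The BT474m1 values were 176.3 with DMSO, 251.2 under lapatinib, 148.8 under JQ1 and 144.6 under both drugs. The lapatinib library was the highest and those with JQ1 the lowest, at log2 fold changes of 0.51 (0.31 to 0.72), -0.24 (-0.47 to -0.02) and -0.28 (-0.52 to -0.05), all under 2-fold. DLL1 overlaps FAM120B in RefSeq. FAM120B read 427.3 to 957.5 over the 8 libraries, including the SKBR-3 libraries in which DLL1 was at most 3.06.

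HES1, the effector with the highest level, read 1326 with DMSO, 2047 under lapatinib, 1522 under JQ1 and 2537 under both drugs in SKBR-3. The corresponding BT474m1 libraries read 1869.9, 1536, 2425 and 1723. The lapatinib libraries were the higher ones in SKBR-3 and the lower ones in BT474m1. Its log2 fold change with lapatinib was 0.63 (0.54 to 0.71) in SKBR-3 and -0.28 (-0.36 to -0.21) in BT474m1. The combination gave 0.94 (0.86 to 1.02) and -0.12 (-0.19 to -0.05). None reached 2-fold as deposited, although the SKBR-3 value with both drugs was 1.08 with scaling by the median of ratios. JQ1 alone gave 0.20 (0.11 to 0.29) in SKBR-3 and 0.37 (0.31 to 0.44) in BT474m1.

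HEY1 read 57.3 with DMSO, 55.1 under lapatinib, 37.4 under JQ1 and 72.2 under both drugs in SKBR-3, all within 2-fold of DMSO. BT474m1 gave 14.1, 4.22, 13.0 and 4.66, from 30, 7, 27 and 8 reads. Both BT474m1 libraries with lapatinib lay below both without it. HEY1 fell there with lapatinib by 1.54 on the log2 scale (-3.18 to -0.53) and with both drugs by 1.42 (-2.94 to -0.44). These values are low, and a pseudocount of 10 brought them to -0.76 and -0.72.

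HEY2 had 0, 0, 2 and 3 reads in SKBR-3. In BT474m1 it read 67.9 with DMSO, 141.6 under lapatinib, 38.6 under JQ1 and 8.75 under both drugs, from 144, 235, 80 and 15 reads. The lapatinib library was the highest and the library with both drugs the lowest. HEY2 rose with lapatinib by 1.05 (0.75 to 1.37). With both drugs it fell by 2.82 on the log2 scale (-3.83 to -2.19). With JQ1 alone it differed by -0.80 (-1.23 to -0.41). Against lapatinib, the combination gave -3.87 (-4.88 to -3.27), the largest change of any member on more than 3 reads between libraries of 1 line. The rise with lapatinib was at the line of 2-fold with scaling by the median of ratios, where it no longer counted, and stood at 0.96 with a pseudocount of 10. The endothelial markers VWF and CDH5 in BT474m1 read 152.8 and 36.3 with DMSO, 30.7 and 0 with lapatinib, 11.1 and 3.86 with JQ1, and 5.25 and 1.17 with both drugs. They were thus lower with lapatinib, where HEY2 was higher, and lowest with both drugs, as HEY2 was, apart from CDH5 at 0 with lapatinib. Their part in the result was not tested.

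**Figure D3:**
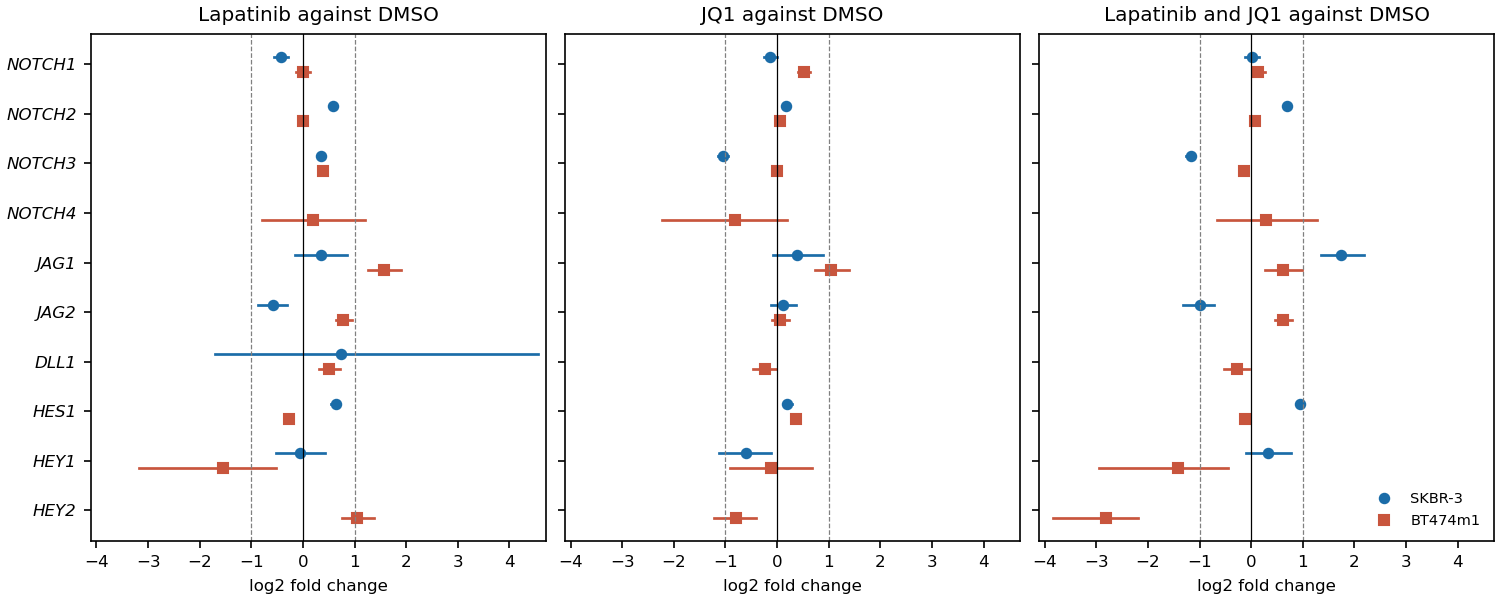
Log2 fold change against DMSO of each member under lapatinib, JQ1 and both drugs (3 panels), circles for SKBR-3 and squares for BT474m1, with lines for the 95% counting interval and dashed lines at 2-fold; comparisons with 3 reads or fewer in both libraries are left out. NOTCH3 lies at -1.04 with JQ1 in SKBR-3 and at -0.00 in BT474m1, and HEY2 lies at -2.82 with both drugs in BT474m1.

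The value with both drugs was set against the sum of the single-drug log2 fold changes within each line, where 0 means that the drugs' fold changes multiply. Over all genes the median departure was -0.06 in SKBR-3 and 0.01 in BT474m1. A departure of 2-fold or more above the sum was seen for 3.90% of genes in SKBR-3 and 4.72% in BT474m1, and below it for 7.58% and 4.73%. JAG1 lay above the sum in SKBR-3, by 1.0 (0.40 to 1.60), and below it in BT474m1, at -2.00 (-2.43 to -1.56). HEY2 in BT474m1 lay furthest below, at -3.07 (-3.92 to -2.22). HEY1 lay above the sum in SKBR-3, by 0.99 (0.33 to 1.64), and at 0.23 (-1.42 to 1.87) in BT474m1. These ranges are counting intervals by the delta method.

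Among the receptors, NOTCH3 lay below the sum in both lines, at -0.47 (-0.60 to -0.34) in SKBR-3 and -0.53 (-0.61 to -0.45) in BT474m1. NOTCH2 was close to it, at -0.05 and 0.03. NOTCH1 lay above it in SKBR-3, by 0.58 (0.39 to 0.77), and below it in BT474m1, at -0.38 (-0.56 to -0.21). JAG2 lay at -0.53 (-0.93 to -0.12) and -0.22 (-0.45 to -0.00), DLL1 in BT474m1 at -0.55 (-0.86 to -0.23), and HES1 at 0.11 and -0.21.

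**Figure D4:**
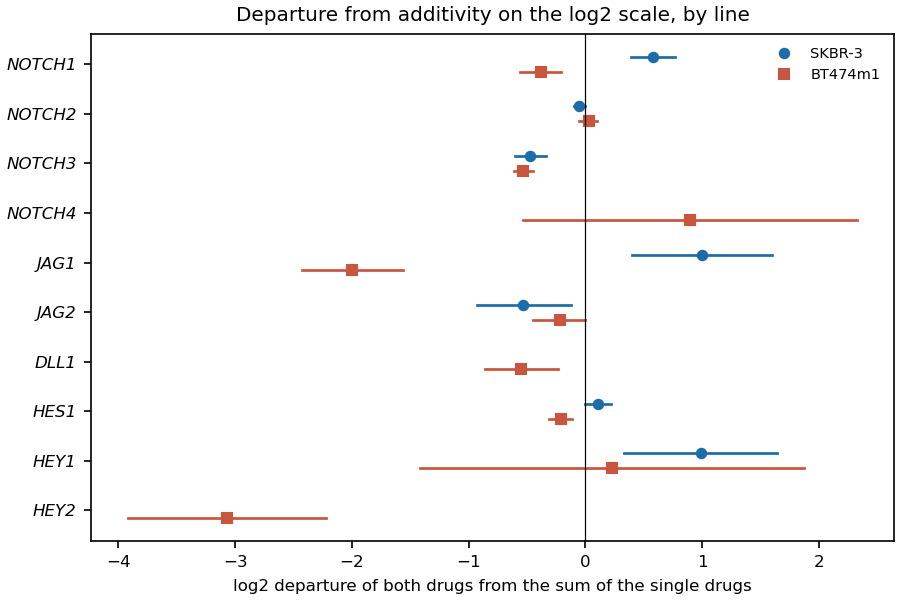
Departure of the value with both drugs from the sum of the single-drug log2 fold changes (x axis, log2 units; 0 is the sum) for each member, circles for SKBR-3 and squares for BT474m1, with lines for the 95% counting interval; members with under 4 reads in a library of the line are left out. JAG1 lies on opposite sides of 0 in the 2 lines, and HEY2 in BT474m1 lies furthest from 0.

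With DMSO alone, BT474m1 was compared with SKBR-3. Here 3 members were higher in BT474m1 (NOTCH4, DLL1 and HEY2) and 2 lower (NOTCH2 and HEY1), against 26.8% and 15.6% of all genes, with a median of 0.49 (0.21 over all genes). The 3 counted as higher passed the filter through BT474m1 alone, reading at most 3.06 in any SKBR-3 library. The filter thus all but fixed their direction, and their count is not evidence about the members. DLL1 was at 123 times the SKBR-3 value (33.9 to 1021), from 374 reads against 2, so that the size is poorly fixed. HEY2 was at least 31.6-fold higher and NOTCH4 at least 4.33-fold higher, both against a floor of 3 reads in the SKBR-3 library and without counting error in BT474m1. With that error included, the lower ends of the counting intervals were 25.4-fold and 3.25-fold. NOTCH2 was at 0.402 of the SKBR-3 value (0.390 to 0.415) and HEY1 at 0.247 (0.157 to 0.380). The other 5 differed by less than 2-fold, from -0.47 for NOTCH1 to 0.52 for JAG2 on the log2 scale. The line and any difference in how its libraries were handled cannot be told apart.

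Between the lines, the responses of JAG1 differed by 1.21 (0.63 to 1.79) with lapatinib and by -1.13 (-1.67 to -0.59) with both drugs, BT474m1 minus SKBR-3 on the log2 scale. Those of HEY1 differed by -1.48 (-2.76 to -0.21) and -1.75 (-2.95 to -0.55). For JAG2 the differences were 1.38 (1.05 to 1.70) and 1.63 (1.29 to 1.96), and for HES1 they were -0.91 (-1.02 to -0.80) and -1.05 (-1.16 to -0.95). JAG2 and HES1 thus moved to opposite sides of DMSO in the 2 lines whenever lapatinib was present, JAG2 being lower in SKBR-3 and HES1 lower in BT474m1.

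The rest of the pathway was described with a list of 56 other genes, of which 50 had a value of at least 10 in at least 1 library. Of these, 7 rose and 4 fell with lapatinib in SKBR-3 (11.1% and 9.44% of all genes), 1 and 8 with JQ1 (3.75% and 11.8%), and 8 and 8 with both drugs (10.8% and 20.8%). In BT474m1, 4 rose and 3 fell with lapatinib (14.0% and 8.06% of all genes), 3 and 10 with JQ1 (4.81% and 11.8%), and 2 and 9 with both drugs (14.2% and 15.3%). Several of these counts lie near those shares, and nothing particular to the pathway is read from them. The medians were 0.24, -0.11 and 0.30 in SKBR-3, and 0.08, -0.23 and -0.10 in BT474m1. Among the genes counted as higher with lapatinib in SKBR-3, 1 had an interval that included no change.

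In 3 of the 50, a treatment moved the gene 2-fold or more the same way in SKBR-3 and BT474m1, with DMSO or that treatment at 100 or above in each line. The share of all genes that meet this rule was not taken, so nothing particular to the pathway is read from the count. NEURL1B, a ubiquitin ligase that acts in the endocytosis of Notch ligands, read 906.2 with DMSO, 213.6 under lapatinib, 413.7 under JQ1 and 71.5 under both drugs in SKBR-3. The BT474m1 values were 1410 with DMSO, 157.2 under lapatinib, 579.7 under JQ1 and 212.2 under both drugs. It fell in all 6 comparisons with DMSO, with log2 fold changes between -1.13 and -3.64 in SKBR-3 and between -1.28 and -3.16 in BT474m1. Relative to the sum of the single drugs it lay at -0.44 (-0.79 to -0.08) in SKBR-3 and at 1.71 (1.46 to 1.96) in BT474m1.

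MAML2, a Mastermind coactivator of the RBPJ complex, read 45.1 with DMSO, 202.1 under lapatinib, 20 under JQ1 and 119.0 under both drugs in SKBR-3. The corresponding BT474m1 libraries read 59.9, 172.3, 12.6 and 46.6. It was highest with lapatinib and lowest with JQ1 in both lines, with log2 fold changes of 2.14 (1.76 to 2.58) and -1.14 (-1.84 to -0.53) in SKBR-3, and 1.51 (1.22 to 1.84) and -2.17 (-2.92 to -1.64) in BT474m1. DTX4, a Deltex ubiquitin ligase, fell with both drugs, from 737.3 with DMSO to 321.2 in SKBR-3 and from 623.8 with DMSO to 248.4 in BT474m1, at ratios of 0.436 (0.390 to 0.487) and 0.398 (0.356 to 0.445).

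By role, the 9 genes of receptor cleavage had at most 1 change of 2-fold against DMSO in any treatment and line. Under both drugs, 0 rose and 0 fell in SKBR-3, beside 10.8% and 20.8% of all genes, and 0 rose and 1 fell (FURIN) in BT474m1, beside 14.2% and 15.3%. With 9 genes and 1 library per group, nothing particular to the role is read from these counts. The 4 genes of receptor glycosylation gave 0 changes in SKBR-3 under any treatment, and 1 fall in BT474m1 (RFNG, with JQ1), and 4 genes are too few to set against shares of 3.75% to 20.8% of all genes. Of the 9 genes of receptor turnover, 4 fell and 0 rose with JQ1 in BT474m1 (DTX1, DTX3, DTX3L and DTX4). With JQ1 in SKBR-3, 1 fell (DTX3, from 10 reads to 1), and the share of all genes that fell was 11.8% in both lines. With both drugs, 3 fell in SKBR-3 (DTX1, DTX3 and DTX4), where 20.8% of all genes did, and the same 4 as with JQ1 fell in BT474m1, where 15.3% did. Of the falls in SKBR-3, those of DTX1 (9 reads to 1) and DTX3 (10 reads to 0) were near the floor, since both genes passed the filter through BT474m1 alone.

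Of the 8 genes of the nuclear complex, 3 rose and 0 fell in SKBR-3 with lapatinib and again with both drugs (MAML2, MAML3 and the acetyltransferase gene KAT2B each time), beside 11.1% and 10.8% of all genes that rose. In BT474m1 1 rose with lapatinib (MAML2), beside 14.0% of all genes. With both drugs 0 changed there, while 14.2% of all genes rose and 15.3% fell. With JQ1 1 fell in each line (MAML2), beside 11.8% of all genes in both. Among the 9 corepressors, 2 rose (TLE1 and TLE4) and 1 fell (TLE2) with both drugs in SKBR-3, beside 10.8% and 20.8% of all genes. In BT474m1, 0 rose and 2 fell (TLE2 and TLE4), beside 14.2% and 15.3%. With 8 or 9 genes in a role, nothing particular to the role is read from these counts. The remaining roles held 4 genes or fewer each.

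Some genes outside the naming rule are given because of their values, having been chosen after these were seen. DLL4, a Delta ligand, read 14.3, 77.3, 12.2 and 84.6 in SKBR-3 (DMSO, lapatinib, JQ1 and both drugs) and 2.83, 10.8, 17.9 and 47.2 in BT474m1. It was higher with lapatinib in both lines, by 2.35 (1.73 to 3.20) and 1.63 (0.54 to 3.56), and with JQ1 it stood at 2.30 in BT474m1 and -0.21 in SKBR-3, a difference of 2.51 (0.97 to 4.05). NRARP, a Notch target that dampens the signal, read 75.9, 23.0, 33.5 and 27.5 in SKBR-3 and 475.2, 590.4, 507.7 and 674.1 in BT474m1. It fell with each treatment in SKBR-3, at -1.68, -1.16 and -1.43, and stayed under 2-fold in BT474m1, at 0.31, 0.10 and 0.50.

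HES4 and HES6, relatives of HES1, also differed between treatments. HES4 read 621.3, 280.2, 262.9 and 70.2 in SKBR-3, and 427.2, 427.1, 298.1 and 266.5 in BT474m1. In SKBR-3 with both drugs it fell by 3.13 on the log2 scale (-3.46 to -2.85), and in BT474m1 no change reached 2-fold. HES6 read 250.5, 87.3, 494.2 and 139.0 in SKBR-3 and 269.7, 167.5, 1106 and 563.3 in BT474m1. It was highest with JQ1 in both lines, at 0.98 (0.80 to 1.17) and 2.03 (1.90 to 2.17) against DMSO. LFNG, a glycosyltransferase that alters how receptors respond to ligands, was 5.48 (5.24 to 5.77) higher on the log2 scale in BT474m1 than in SKBR-3 with DMSO, at 3979 against 88.0.

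**Figure D5:**
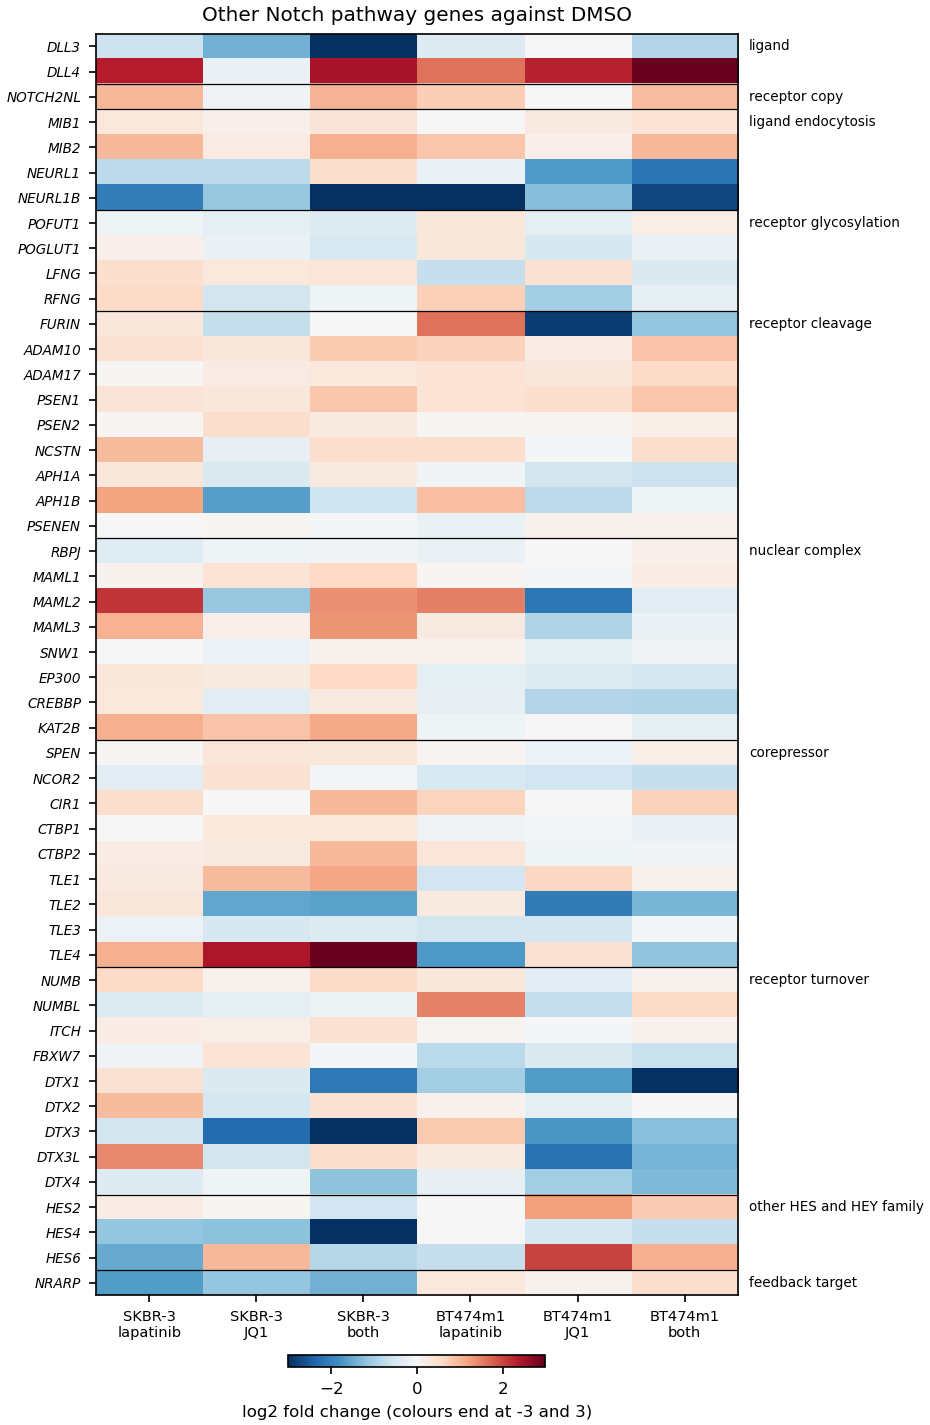
Log2 fold change against DMSO (colour, red higher and blue lower, ending at -3 and 3) of the 50 other pathway genes that passed the filter (rows, by role) under the 3 treatments in each line (columns), 1 library per group. The rows of NEURL1B are blue in all 6 columns, and MAML2 is red with lapatinib and blue with JQ1 in both lines.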

How the data were processed

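The authors deposited 1 table for each of 8 libraries, grouped by their labels into 2 lines and 4 treatments. The values are a signal per gene, namely RSEM's estimated counts after the authors set the upper quartile of genes above 0 to 1000. Scaling removes depth but does not correct for length, and a change in the upper quartile itself would shift every gene. The submitters' processing notes name hg19, RSEM, Picard 1.88, SAMtools 1.2 and R 3.2.2, whereas the study's methods name another build and aligner. The treatment time is that of the labels, which the study also gives for RNA sequencing of SKBR-3, although its general methods state a shorter one. Gene positions are therefore not given, and promoter windows are those of GRCh38.p14.

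The value of 1 read was recovered as the common step between values. With it, 83.8% to 85.2% of values above 0 were whole reads (tolerance 0.02), and the rest were divided between genes and were rounded for intervals. Depth was 21420113 to 34112379 reads. The filter kept the 14429 of 20531 genes that reached 10 units in any of the 8 libraries. Fold changes were differences of log2(value + 1), and 2-fold was the line for a count. Intervals were exact Clopper-Pearson intervals at 95%, or delta-method intervals for departures and line differences. Levels between genes were divided by the length of the canonical GENCODE transcript. The software was scipy 1.17.1, numpy 2.4.6, matplotlib 3.10.9 and pandas 2.3.3 under Python 3.11.15, and the functions were tested on simulated data.

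The members, lists and rules were chosen with earlier results of these data known. The 10 members were all named. Other pathway genes were named when changed at least 2-fold in the same direction in both lines under 1 treatment, with a value of at least 100 in either library of that comparison in each line. The genes nearest in pattern to a member were to be named only for a member that met the same rule, and 0 did. Of the 56 other pathway genes all were found in the tables. The alternatives were scaling to equal totals or by the median of ratios, a pseudocount of 10, a filter at 100 or none, and counting only changes whose interval excluded none.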

Additional observations from a re-analysis of the deposited data

Results flagged for a closer look

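The drug-treated libraries of 3 genes lay on opposite sides of DMSO in the 2 lines, under lapatinib and again under both drugs, by more than counting error in each line (members, JAG2 and HES1) or by at least 2-fold in each line (other pathway genes, TLE4). A further 10 other pathway genes also lay on opposite sides under both treatments, with a change under 2-fold in a line. For 6 of them (APH1A, CREBBP, EP300, LFNG, NRARP and POFUT1) every change was beyond counting error, as for JAG2 and HES1. With 1 library per group these differences were not tested, and both rest on the same DMSO library of each line. The share of all genes on opposite sides was not taken, so nothing particular to the pathway is read from these counts. For JAG2 the log2 fold change in BT474m1 minus that in SKBR-3 was 1.38 with lapatinib and 1.63 with both drugs. For HES1 it was -0.91 with lapatinib and -1.05 with both drugs. For TLE4, a Groucho-type corepressor recruited by HES and HEY proteins, it was -2.77 with lapatinib and -4.61 with both drugs. In the order DMSO, lapatinib, JQ1 and both drugs, TLE4 read 5.03, 11.5, 31.2 and 63.6 in SKBR-3, and 36.1, 10.3, 50.1 and 15.3 in BT474m1. Its change with lapatinib in SKBR-3, 1.06 (-0.18 to 2.73), had an interval that included no change.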

How the results depend on the processing

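No paired analysis was possible because each group held 1 library and the labels carry no replicate numbers; for the same reason no library could be left out. No member's log2 fold change or departure of at least 1 in size changed sign with a pseudocount of 10 or with another scaling. Smaller values were not checked for a change of sign. Counts that moved by over 1.5 times are given, first for the members. Smaller moves of the members' counts were, for higher ones, from 3 to 2 with a filter at 100 and 3 to 4 with the median of ratios (SKBR-3 both drugs), and from 3 to 2 with a filter at 100 or a pseudocount of 10 (BT474m1 against SKBR-3). With a pseudocount of 10, higher counts went from 1 to 0 (SKBR-3 JQ1), 3 to 1 (SKBR-3 both drugs), 2 to 1 (SKBR-3 both drugs against lapatinib, and against JQ1), 2 to 1 (BT474m1 lapatinib), 1 to 0 (BT474m1 JQ1) and 1 to 0 (BT474m1 both drugs against JQ1), and lower counts went from 2 to 1 (SKBR-3 both drugs), 1 to 0 (BT474m1 lapatinib), and 2 to 1 (BT474m1 both drugs against DMSO, and against JQ1). With the median of ratios, lower counts went from 1 to 0 (SKBR-3 JQ1) and 2 to 1 (SKBR-3 both drugs), and the higher count from 2 to 1 (BT474m1 lapatinib). With a filter at 100, which removed NOTCH4 and HEY1, counts went from 2 to 1 higher (SKBR-3 both drugs against JQ1), 1 to 0 lower (BT474m1 lapatinib), 2 to 1 lower (BT474m1 both drugs against DMSO, and against JQ1; BT474m1 against SKBR-3) and 1 to 0 higher (BT474m1 both drugs against JQ1). Counting only changes whose interval excluded none, higher counts went from 1 to 0 (SKBR-3 JQ1), 3 to 1 (SKBR-3 both drugs), and 2 to 1 (SKBR-3 both drugs against lapatinib, and against JQ1). For the other pathway genes, a pseudocount of 10 took lower counts from 8 to 4 (SKBR-3 JQ1) and 10 to 6 (BT474m1 both drugs against lapatinib), and higher counts from 2 to 1 (SKBR-3 both drugs against lapatinib) and 8 to 4 (against JQ1). A filter at 100 took higher counts from 1 to 0 (SKBR-3 JQ1), 2 to 0 (SKBR-3 both drugs against lapatinib), 8 to 5 (against JQ1) and 2 to 1 (BT474m1 both drugs against DMSO, and against lapatinib), and lower counts from 3 to 1 (BT474m1 lapatinib, and both drugs against JQ1) and 5 to 3 (BT474m1 against SKBR-3). The median of ratios took the higher count in SKBR-3 with JQ1 from 1 to 3, no filter took that of BT474m1 with both drugs against JQ1 from 4 to 7, and the interval rule took that of SKBR-3 with both drugs against lapatinib from 2 to 1. Scaling to equal totals moved 0 of these 44 counts by over 1.5 times. The median over all genes moved by more than 0.1 in 3 cases with another scaling, from -0.08 to -0.22 for JQ1 in SKBR-3 with equal totals and, with the median of ratios, from 0.21 to 0.06 for BT474m1 against SKBR-3 and from -0.11 to 0.00 for SKBR-3 with both drugs against lapatinib. Without a filter it was 0.00 in every comparison, which moved it by more than 0.1 for BT474m1 against SKBR-3 (from 0.21) and for SKBR-3 with both drugs against lapatinib (from -0.11). Counts over all genes moved by over 1.5 times only with a pseudocount of 10 or a filter at 100, the largest change being from 465 to 240. The alternatives for genes nearest in pattern were not run, because 0 members met that rule. Depth limits NOTCH4, DLL1 and HEY2 in SKBR-3, each at 4 reads or fewer.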
